A study of Homo sapiens with 2 samples.

Results

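The BCL2 family decides at the mitochondrial outer membrane whether a stressed cell survives or enters apoptosis, and 10 of its genes were described in RNA-seq data of 2 lung cancer cell lines. They were the pro-survival genes BCL2, BCL2L1, BCL2L2 and MCL1, the pore-forming effector BAK1, and the BH3-only genes BID, BCL2L11, PMAIP1, BMF and BIK. These genes were chosen by symbol, and each had 1 row among the 27685 genes listed and together 48 rows among the 63714 RefSeq transcripts listed. One group was a library of untreated H2087 cells, the established line in which the study measured expression to find highly expressed genes near histone-modified regions. The other was a library of untreated H596 cells, an established line that the text of the study does not describe. Both were labelled Lung adenocarcinoma, were grown in RPMI medium with fetal bovine serum, and carried no labelled genetic change or agent. Values are estimated read counts and FPKM, which are fragments per kilobase of exon, scaled by the mapped fragments of the library. Each line had 1 library, so no value had a replicate check, no test between the lines was possible, and "higher" and "lower" compare these libraries.

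Pro-survival proteins hold the effectors BAK1 and BAX inactive by binding them in a groove formed by their BCL2 homology (BH) domains. BH3-only proteins are made or activated after stress, enter that groove through a short helix, and either free the effectors or activate them directly. Once active, BAK1 and BAX open the outer membrane and release cytochrome c, which starts the caspase cascade. Lung cancer cells commonly depend on MCL1 and on the long form of BCL2L1, known as Bcl-xL, and both have been pursued as drug targets.

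Total estimated counts were 46961500 in H2087 and 55387847 in H596. Precision is given as a 95% confidence interval (CI) that covers counting error only, and it would be too narrow if both mates of a read pair were counted. For genes it was formed from the gene's total count. It is therefore also too narrow where much of a gene's FPKM rests on a transcript with few counts. The epithelial markers EPCAM, CDH1, KRT8, KRT18 and KRT19 were present in both libraries, with a lowest FPKM of 52.3 in H2087 and 59.6 in H596. The library labelled H596 had little of the lung adenocarcinoma markers NKX2-1 (FPKM 110 in H2087 and 0.508 in H596) and NAPSA (21.9 and 0.0645), whereas KRT7 was high in both (791 and 608). SFTPB and SFTPC were at or near 0 in both. All 5 squamous markers had a higher FPKM in H596, where they ranged from 33.9 to 106, and KRT5 and DSG3 had 0 counts in H2087. The summed FPKM of the squamous markers was 40.8 in H2087, nearly all of it SOX2, and 305 in H596. Of the 5 blood markers PTPRC and CD3E had 0 counts in both libraries and CD68, which epithelial cells also make, accounted for most of a sum of 129 in H2087 and 25.7 in H596. The 5 stromal markers summed to 3.94 and 10.7, and DCN went from 0 counts in H2087 to 9.77 in H596. The part of these marker differences in the values given next was not tested.

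BCL2L1 and MCL1 each encode a long protein that protects the cell and a short one that promotes death, and the sequences that separate these forms are shown because the transcript values turn on them. All are from the reference genome (GRCh37), which has the same coordinates as the deposited hg19 positions, and both genes lie on the minus strand. In BCL2L1, the choice between a pair of donor sites in one exon keeps or removes 189 bases, or 63 codons, at chr20:30309458-30309646. They encode parts of the BH1 and BH2 domains. The segment is followed here by 6 bases of intron (chr20:30309452-30309646), and capitals mark the first 2 bases after each donor site. The junctions show 20 bases on each side, with the last exon in capitals.
BCL2L1 long-form segment: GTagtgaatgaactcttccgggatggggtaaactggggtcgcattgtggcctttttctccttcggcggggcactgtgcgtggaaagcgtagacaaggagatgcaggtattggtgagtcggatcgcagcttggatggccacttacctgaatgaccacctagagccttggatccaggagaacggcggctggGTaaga
BCL2L1 short junction: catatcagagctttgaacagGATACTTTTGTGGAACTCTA
BCL2L1 long junction: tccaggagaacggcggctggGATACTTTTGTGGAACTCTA

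In MCL1 the short form skips exon 2, which has 248 bases (chr1:150550720-150550967). This is 82 codons with 2 bases left over, so the frame of the last exon is shifted and the membrane anchor is lost. The exon is shown with 6 intron bases on each side (chr1:150550714-150550973), and capitals mark the intron bases at the splice sites. The extra short form lacks 459 bases, or 153 codons, inside exon 1 (chr1:150551440-150551898), the region that destabilises the protein. In the junctions, capitals mark what follows the join.
MCL1 exon 2: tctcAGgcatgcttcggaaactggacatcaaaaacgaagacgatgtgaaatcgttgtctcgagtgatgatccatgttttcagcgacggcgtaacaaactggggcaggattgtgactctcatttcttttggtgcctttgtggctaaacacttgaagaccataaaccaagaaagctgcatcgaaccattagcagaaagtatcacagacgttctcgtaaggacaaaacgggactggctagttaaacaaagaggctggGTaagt
MCL1 short junction: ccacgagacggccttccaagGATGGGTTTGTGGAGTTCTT
MCL1 extra short junction: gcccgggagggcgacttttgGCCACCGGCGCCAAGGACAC

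The lengths of 189, 248 and 459 bases equalled the differences in length between the deposited transcripts, after allowing for the differing end of the BCL2L1 transcripts. Both BCL2L1 donor sites and the MCL1 donor site begin with GT, and the MCL1 acceptor ends with AG.

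MCL1 was the most abundant member in both libraries, followed by BCL2L1, and BCL2 was the least abundant. BAK1 was the member that differed most, and it was 5.98 times higher in H596. The 4 pro-survival genes all had a higher level in H596, while the 5 BH3-only genes did not share a direction. In bulk RNA, fewer cells expressing a gene and less RNA per cell cannot be told apart. Differences between libraries were expressed as log2(FPKM + 1) in H596 minus that in H2087, which understates the change of genes with low values. At least 2-fold on this scale, 3 of the 10 members were higher in H596 (BAK1, BCL2L1 and BCL2), and 18.2% of the 13048 genes tested, those whose mean FPKM was 1 or more, were as well. BMF was the 1 member at least 2-fold lower, against 14.2% of those genes. The median difference of the members was 0.67 and that of all tested genes 0.12, and 8 of 10 members were above 0, compared with 55.2% of all tested genes. Because the median of all genes was shifted, differences are also given relative to it. All 10 members passed the minimum mean level, but BCL2 did so only through its level in H596, so a difference was built into its inclusion.

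**Figure D1:**
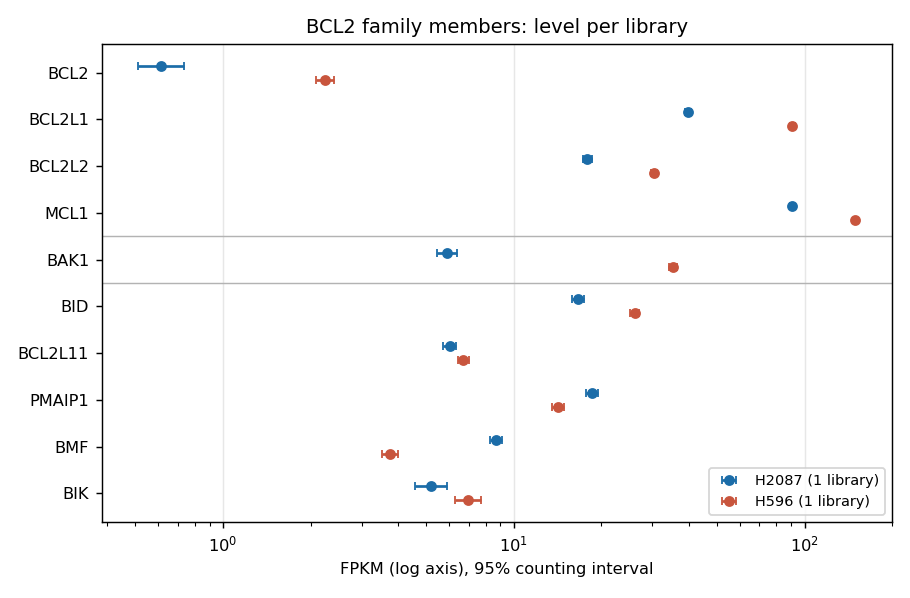
Level of each of the 10 members in H2087 (blue) and H596 (red), as FPKM on a log axis, where points are single libraries, and bars are 95% counting intervals, hidden where shorter than the point. The pro-survival genes are at the top, BAK1 in the middle and the BH3-only genes below. MCL1 is the highest in both lines, and BAK1 moves from 5.90 to 35.3.

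**Figure D2:**
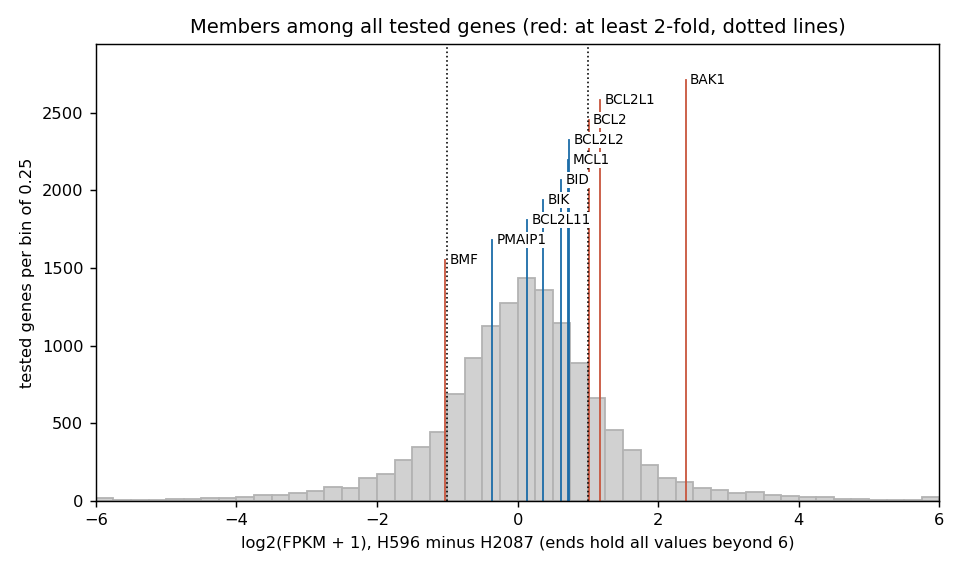
Differences of log2(FPKM + 1), H596 minus H2087, of the 13048 tested genes (grey histogram, genes per bin of 0.25) with the 10 members as vertical lines whose heights only separate the labels. Dotted lines are 2-fold, and red members are past them: BMF on the left, and BCL2, BCL2L1 and BAK1 on the right.

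Among the pro-survival genes, MCL1 (gene 4170, chr1:150547027-150552214) encodes a short-lived protein that binds both BAK1 and most BH3-only proteins. Its FPKM was 90.4 (95% CI, 89.1–91.7, 17666 counts) in H2087 and 149 (148–151, 34493 counts) in H596. The FPKM ratio was 1.65 (1.62–1.68) and the log2 difference 0.72, or 0.60 relative to the median of all genes, below the 2-fold threshold. It ranked 795th of all listed genes in H2087 and 405th in H596.

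BCL2L1 (gene 598, chr20:30252255-30311802) encodes Bcl-xL. Its FPKM was 39.7 (38.7–40.8, 5096 counts) in H2087 and 90.9 (89.4–92.4, 13881 counts) in H596. The level in H596 was 2.29 times (2.21–2.36) that in H2087, with a log2 difference of 1.17, or 1.06 relative to the median. BCL2L1 therefore stayed past 2-fold after that shift was taken out.

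BCL2L2 (gene 599, chr14:23775971-23780968), which encodes the pro-survival protein Bcl-w, was measured at 17.9 FPKM (17.3–18.5) in H2087 and 30.4 (29.7–31.2) in H596. The ratio was 1.70 (1.63–1.78) and the log2 difference 0.73. This was close to the difference of MCL1 and under 2-fold.

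BCL2 (chr18:60790579-60986613), the founding member of the family, was low in both lines. Its FPKM was 0.612 (0.509–0.736, 113 counts) in H2087 and 2.25 (2.09–2.42, 741 counts) in H596. The ratio was 3.67 (3.01–4.52), but the log2 difference was only 1.01, just past 2-fold, because of the low level. Relative to the median of all genes it was 0.89 and under 2-fold. BCL2L1 exceeded BCL2 64.9 times (53.9–78.9) in H2087 and 40.4 times (37.5–43.6) in H596. In H2087, 0.309 of the FPKM of BCL2 came from a transcript with 18 counts. The intervals of BCL2 and of its ratios treat the 113 counts of the gene alike, so they are too narrow.

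BAK1 (gene 578, chr6:33540323-33548070) encodes an effector that sits in the outer membrane and is held in check mainly by MCL1 and Bcl-xL. Its FPKM was 5.90 (5.45–6.38, 621 counts) in H2087 and 35.3 (34.2–36.3, 4390 counts) in H596. The ratio was 5.98 (5.50–6.51) and the log2 difference 2.39, larger in size than that of 93.1% of tested genes. BAK1 ranked 8180th of the listed genes in H2087 and 2244th in H596, where it was below only MCL1 and BCL2L1 among the members.

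BAX, the other main effector, is cytosolic in healthy cells and was examined beside BAK1. Its FPKM was 58.1 (55.8–60.5) in H2087 and 37.6 (35.9–39.4) in H596, a log2 difference of -0.61. The BAX to BAK1 ratio was 9.85 (9.01–10.8) in H2087 and 1.07 (1.01–1.13) in H596. Summed, the levels of the pair came to 64.0 FPKM in H2087 and 72.9 in H596. Thus the sum differed little next to its composition: nearly all BAX in H2087, and similar amounts of both in H596. MCL1 exceeded BAK1 15.3 times (14.1–16.6) in H2087 and 4.23 times (4.10–4.37) in H596. This and the other ratios between genes were formed after the values were seen.

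The BH3-only genes were described next. BID (gene 637, chr22:18216906-18257431) encodes a protein that caspase 8 cleaves to link death receptors to mitochondria. Its FPKM was 16.7 (15.9–17.5) in H2087 and 26.1 (25.2–27.0) in H596, a ratio of 1.57 (1.48–1.66) and a log2 difference of 0.62.

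BCL2L11 (gene 10018, chr2:111878491-111926022) encodes BIM, which binds all the pro-survival proteins. Its FPKM was 6.02 (5.71–6.35) in H2087 and 6.71 (6.42–7.02) in H596, a ratio of 1.11 (1.04–1.19). The log2 difference of 0.13 was 0.02 relative to the median of all genes.

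PMAIP1 (gene 5366, chr18:57567192-57571538) encodes NOXA, which binds MCL1 and promotes its degradation. Its FPKM was 18.5 (17.7–19.4) in H2087 and 14.2 (13.5–14.9) in H596, with a log2 difference of -0.36. With MCL1 higher and PMAIP1 lower in H596, the MCL1 to PMAIP1 ratio was 4.88 (4.64–5.13) in H2087 and 10.5 (10.0–11.1) in H596.

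BMF (gene 90427, chr15:40380091-40401085) encodes a BH3-only protein linked to loss of cell attachment. Its FPKM was 8.68 (8.31–9.08, 1936 counts) in H2087 and 3.75 (3.52–3.99, 993 counts) in H596. The level was 2.32 times (2.14–2.50) higher in H2087, and the log2 difference was -1.03, or -1.15 relative to the median. BMF was the sixth most abundant member in H2087 and the ninth in H596.

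BIK (gene 638, chr22:43506754-43525718) encodes a BH3-only protein of the endoplasmic reticulum. Its FPKM was 5.19 (4.58–5.90, 238 counts) in H2087 and 6.95 (6.28–7.69, 376 counts) in H596. The ratio was 1.34 (1.13–1.58) and the log2 difference 0.36, under 2-fold.

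In H2087 the order of levels was MCL1, BCL2L1, PMAIP1, BCL2L2, BID, BMF, BCL2L11, BAK1, BIK and BCL2. The intervals of PMAIP1 and BCL2L2, of BCL2L2 and BID, of BCL2L11 and BAK1, and of BAK1 and BIK overlapped, so these neighbours were not separated by counting error. In H596 the order was MCL1, BCL2L1, BAK1, BCL2L2, BID, PMAIP1, BIK, BCL2L11, BMF and BCL2, and the intervals of neighbours overlapped for BIK and BCL2L11 alone. The top pair and the lowest gene were the same in both lines.

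Within each library, the share of each gene in the summed FPKM of its group does not depend on how the libraries are scaled to each other. The pro-survival sum was 149 in H2087 and 273 in H596. MCL1 made up 60.8% (60.2–61.4) of it in H2087 and 54.7% (54.3–55.2) in H596, and BCL2L1 made up 26.7% (26.1–27.3) and 33.3% (32.9–33.7). BCL2L2 held 12% (11.6–12.4) and 11.1% (10.9–11.4), and BCL2 held 0.412% (0.343–0.495) and 0.824% (0.767–0.886). The 2 lines therefore shared a pro-survival pool made mostly of MCL1 and BCL2L1, with a larger part of BCL2L1 in H596. The pool is of whole genes, so it holds the short forms of BCL2L1 and MCL1 and a non-coding BCL2L1 transcript. The MCL1 to BCL2L1 ratio was 2.27 (2.20–2.35) in H2087 and 1.64 (1.61–1.68) in H596. Shares formed from estimated counts, which are not divided by length, gave MCL1 68.1% in H2087 and 62.4% in H596.

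The BH3-only sum was 55.1 in H2087 and 57.7 in H596, and its composition differed more than its size. BID made up 30.3% (29.1–31.5) of it in H2087 and 45.2% (44–46.4) in H596. PMAIP1 made up 33.6% (32.4–34.9) and 24.6% (23.6–25.7), and BMF 15.8% (15.1–16.5) and 6.50% (6.10–6.92). PMAIP1 was thus the leading BH3-only member in H2087 and BID in H596. BCL2L11 held 10.9% (10.4–11.5) and 11.6% (11.1–12.2), intervals that overlapped. BIK held 9.43% (8.38–10.6) and 12.1% (11.0–13.2). The pro-survival sum exceeded the BH3-only sum 2.70 times (2.62–2.78) in H2087 and 4.73 times (4.61–4.85) in H596. With the BH3-only genes BAD, BBC3 and HRK added, the ratio was 1.85 (1.80–1.90) and 2.63 (2.57–2.69), so it was higher in H596 either way. These sums are of whole-gene RNA, with the short forms of BCL2L1 and MCL1 in the pro-survival sum, and protein levels were not measured.

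Of the 48 listed transcripts, 23 reached an FPKM of 1 in at least 1 library and 8 had 0 counts in both. By their ends and length, 30 matched an exon chain of the GENCODE annotation on GRCh37, which gave their coding length. Division of reads among overlapping transcripts is itself an estimate, and its error is not in the intervals.

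BCL2L1 had 9 transcripts, each at 1 FPKM or more in both libraries. The short form NM_001191, which lacks the 63 codons shown above and encodes 170 codons, reached 3.98 (3.64–4.34, 500 counts) in H2087 and 5.13 (4.78–5.51, 764 counts) in H596. Its ratio of 1.29 (1.15–1.45) was smaller than that of the gene. Another 6 transcripts matched the long form of 233 codons. The most abundant of these was NM_001317919, at 11.5 and 30.6, followed by NM_138578, at 9.76 and 24.6. Next came NM_001317921, at 4.01 and 7.70, and NM_001317920, at 2.31 and 4.52. NM_001322240 was at 1.51 and 5.39, and NM_001322239 at 1.31 and 1.66. These 6 differ outside the coding region. NM_001322242 (2.14 and 5.48) and the non-coding NR_134257 (3.17 and 5.75) matched no exon chain and were left out of the shares.

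The short form accounted for 11.6% (10.6–12.5) of short plus long BCL2L1 in H2087 and 6.44% (6.01–6.90) in H596. Bcl-xL transcripts thus made up most of the expression in both lines, and the difference between lines lay mainly in them: their sum was 30.5 in H2087 and 74.5 in H596. Against NM_138578 alone, the short form was 29.0% (26.9–31.1) in H2087 and 17.2% (16.2–18.4) in H596. The share depended strongly on which long transcripts were counted, at 11.6% or 29.0% in H2087 and 6.44% or 17.2% in H596. Its order between the lines did not.

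MCL1 was almost all long form. NM_021960 (350 codons) reached 88.5 FPKM (87.2–89.9) in H2087 and 143 (141–144) in H596, or 98.0% (97.7–98.2) and 95.7% (95.4–95.9) of the gene. The short form NM_182763 (271 codons) had 0.856 (0.732–1.0, 158 counts) and 2.94 (2.72–3.18, 641 counts). The extra short form NM_001197320 (197 codons) had 0.991 (0.854–1.15, 173 counts) and 3.51 (3.27–3.78, 724 counts). Both minor forms were over 3 times higher in H596, at ratios of 3.43 (2.88–4.11) and 3.55 (3.0–4.21), compared with 1.61 (1.58–1.64) for the long form. As a share of short plus long, the short form was 0.958% (0.820–1.12) in H2087 and 2.02% (1.87–2.18) in H596. So the short form of MCL1 took a larger share in H596, whereas the short form of BCL2L1 took a smaller one.

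BCL2 had an alpha transcript, NM_000633, whose protein of 239 codons carries the membrane anchor, and a beta transcript, NM_000657, which ends early and lacks it. The FPKM of alpha was 0.304 (0.248–0.371, 95 counts) in H2087 and 1.95 (1.82–2.10, 720 counts) in H596, a ratio of 6.43 (5.19–8.05). Beta had 0.309 (0.195–0.488, 18 counts) and 0.297 (0.194–0.454, 21 counts), with overlapping intervals. Beta, which matched no exon chain, was 50.4% (38.1–62.7) of the gene's FPKM in H2087 and 13.2% (8.97–19.0) in H596. From estimated counts, which are not divided by length, beta was 15.9% (10.3–23.8) in H2087 and 2.83% (1.86–4.29) in H596. The gene's ratio of 3.67 was therefore smaller than that of its alpha transcript, and the beta values rested on few reads.

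The transcripts of BCL2L2 changed places between the lines. The FPKM of NM_004050 was 14.9 (14.3–15.5, 2573 counts) in H2087 and 3.75 (3.49–4.02, 767 counts) in H596. NM_001199839 had 2.99 (2.74–3.26, 511 counts) and 26.7 (26.0–27.4, 5386 counts), a ratio of 8.91 (8.14–9.78). NM_001199839 thus made up 16.7% (15.4–18.1) of BCL2L2 in H2087 and 87.7% (86.8–88.5) in H596. Both encode the same number of codons, 193, and in the matched exon chains they differ in the first exon only. That exon is chr14:23775971-23776103 (133 bases) in NM_004050 and chr14:23776069-23776156 (88 bases) in NM_001199839, and the other 3 exons start at chr14:23776401 and are shared. The division thus rested on reads that reached the first exon, and the gene's own ratio of 1.70 covers both.

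**Figure D3:**
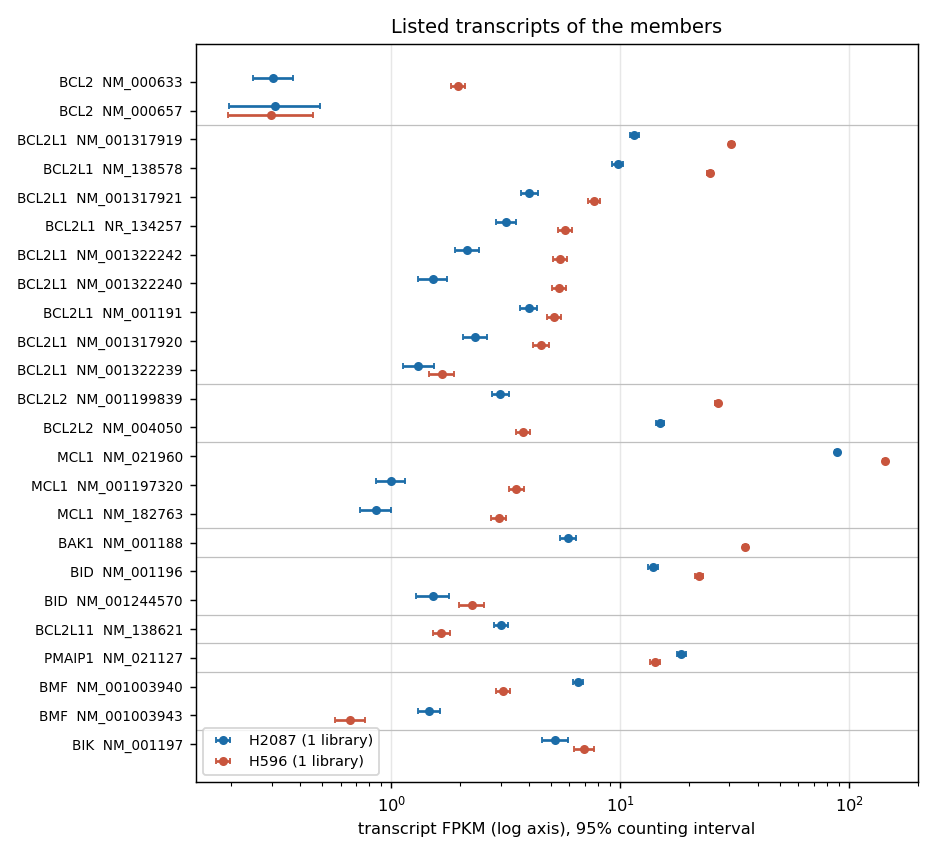
FPKM of the members' transcripts on a log axis in H2087 (blue) and H596 (red), for transcripts with an FPKM of at least 1 in either library and the named minor forms of BCL2 and MCL1. Bars are 95% counting intervals. In BCL2L2 the transcripts trade places, as NM_001199839 goes from 2.99 to 26.7 and NM_004050 from 14.9 to 3.75.

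BCL2L11 had 18 transcripts, of which 6 had 0 counts in both libraries and 4 matched an exon chain. NM_138621, the most abundant, with 198 codons, had a level of 3.01 FPKM (2.80–3.24, 737 counts) in H2087 and 1.65 (1.51–1.81, 479 counts) in H596. Its share of the gene was 50.0% (47.0–53) in H2087 and 24.7% (22.8–26.6) in H596, although the level of the gene differed little. The rest was spread over transcripts that each stayed below or at about 1, among them NM_006538 (138 codons), at 0.613 and 1.0.

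The other BH3-only genes kept their leading transcript. In BID, NM_001196 (195 codons) had an FPKM of 13.9 and 22.1, or 83.4% (81.6–85.2) of the gene in H2087 and 84.8% (83.4–86.0) in H596. NM_001244570, whose 99 codons lack the start of the protein, was next at 1.51 and 2.25. In BMF, NM_001003940 (184 codons) had 6.53 and 3.08, and NM_001003943 (129 codons) had 1.46 and 0.657. Both were lower in H596, with ratios of 0.472 (0.432–0.514) and 0.450 (0.371–0.543). Another BMF transcript, NM_033503, also with 184 codons, fell outside the rule for naming and was named after its values were seen. It had 151 counts in H2087 and 4 in H596. BAK1, PMAIP1 and BIK were listed with 1 transcript each.

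Some listed genes overlap the members and could share reads with them, since the use of strand in counting is not stated. ABALON at BCL2L1 had 2 counts in each library, ADAMTSL4-AS1 at the end of MCL1 had 0 and 10, and MIR3198-1 inside BID had 0 in both. The read-through gene BCL2L2-PABPN1, whose transcript starts at the same base as NM_004050, had an FPKM of 1.25 in both lines (128 and 152 counts). Adding it to BCL2L2 gave 19.1 and 31.7. These overlaps were therefore small next to the counts of the members as genes. The 152 counts of BCL2L2-PABPN1 in H596 were less small next to the 767 of NM_004050 there.

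The genes around each member on its chromosome were described beside it. Medians were taken over the tested genes nearest to each member, 20 on each side where the chromosome held them. For BCL2 the median of 40 neighbours was 0.86, with 35 of 40 above 0, beside 1.01 for BCL2 itself. For PMAIP1 on the same chromosome, with some of the same neighbours, it was 1.05, with 36 of 40 above 0, whereas PMAIP1 was at -0.36. For BCL2L1 it was 0.51 (35 of 40 above 0) and for BAK1 0.54 (32 of 40), both below the members' own differences of 1.17 and 2.39. For BMF it was 0.63 (31 of 40 above 0) against -1.03. PMAIP1 and BMF were thus lower in H596 within regions where most tested genes were higher. For MCL1 the median was 0.33, for BCL2L2 0.02, for BIK -0.10, for BCL2L11 -0.11, and for BID -0.12 over 25 neighbours. In sign, 5 of 10 members matched the median of their neighbours. The part of the region in a member's difference was not tested.

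**Figure D4:**
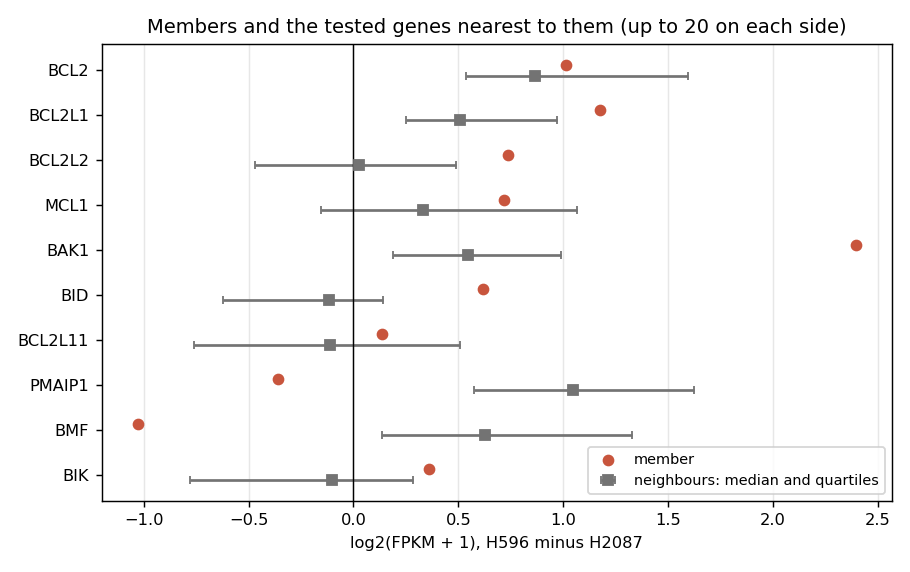
Difference of each member (red point, log2(FPKM + 1), H596 minus H2087) beside the median (square) and quartiles (bars) of its nearest tested genes, up to 20 on each side. PMAIP1 and BMF lie to the left of their neighbours' quartiles. BAK1 lies far to the right of those of its neighbours, and BCL2L1, BCL2L2, BID and BIK also lie to the right of theirs.

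For 7 members the RefSeq promoter table on GRCh38.p14 held a promoter of 300 bases, and BCL2L2, MCL1 and BIK had no entry. The median GC content of these 7 was 70.7%, and that of all 27305 promoters 58.3%. BAK1 had a promoter of 58.7% GC with 2.33 CpG per 100 bases, fewer than any other of the 7, and PMAIP1 had 14. BCL2L1 had the lowest GC of the 7, 52%, with 6.67 CpG per 100 bases. No methylation or factor binding was available to set beside these values.

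Among 11 other genes of the family, 7 passed the minimum level, of which 1 was at least 2-fold higher and 1 lower in H596, with a median difference of -0.04. These counts are near the shares of all tested genes, 18.2% higher and 14.2% lower, which are also the background for the lists that follow. BAD, whose BH3 helix binds Bcl-xL, Bcl-w and BCL2, was higher: 18.4 (17.2–19.6) in H2087 and 42.3 (40.7–44) in H596. BCL2L1 exceeded BAD by nearly the same factor in both, 2.16 (2.01–2.33) and 2.15 (2.06–2.24). BBC3, which encodes PUMA, was lower: 6.22 (5.70–6.78) and 2.35 (2.07–2.66). HRK was at 0.668 and 1.55, the effector relative BOK at 9.74 and 6.93, BCL2L12 at 5.56 and 10.5, and BCL2L13 at 15.4 and 14.9. The pro-survival genes BCL2A1 (0 and 2 counts) and BCL2L10 (0 and 5 counts) were near the limit of 3 counts that a count of 0 allows, and BCL2L14 and BCL2L15 stayed below an FPKM of 0.31. BCL2A1 and BCL2L10 therefore added almost nothing to the pro-survival pool of either line.

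Of the apoptosome and caspases, 11 genes were reported, some acting downstream of the effectors and some, such as CASP8, upstream. Of the 11, 2 were at least 2-fold lower and 0 higher, with a median of -0.03. Among all tested genes, 14.2% were lower and 18.2% higher. This list is incomplete, so its counts are not those of the whole pathway. CASP8, the initiator caspase of death receptors, was lower, at 27.7 (26.8–28.6) and 10.4 (9.90–10.9). So was DIABLO, which blocks the inhibitors of apoptosis once released, at 32.6 (31.5–33.8) and 12 (11.4–12.6). CYCS, which encodes cytochrome c, had the highest mean level of the list, 52.7 and 48.5. Of 7 inhibitors of apoptosis, 5 were tested and 0 passed 2-fold in either direction (18.2% and 14.2% of all tested genes), with a median of 0.71. The most abundant was BIRC5, at 29.5 and 37.0.

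In the death receptor arm, 1 of 10 genes was higher (18.2% of all tested genes) and 3 were lower (14.2%), with a median of -0.14. The kinase gene RIPK1 was at 5.41 (5.09–5.74) and 20.9 (20.4–21.5). CFLAR, whose product blocks caspase 8 activation, was at 30.4 (29.7–31.2) and 5.53 (5.31–5.76), and the receptor gene TNFRSF10A at 9.27 and 3.05. CASP8, given with the caspases, was the other lower gene. TNFRSF1A, the most abundant, was at 46.3 and 55.8. CFLAR and CASP8, which act upstream of BID, were thus lower in H596 where BID itself was at 1.57 times its H2087 level.

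The mitochondrial channel genes, which encode the pores of the outer membrane, had 0 of 3 higher (18.2% of all tested genes) and 2 lower (14.2%), with a median of -1.23. VDAC1 was at 286 (282–289) in H2087 and 75.3 (73.7–76.8) in H596, VDAC2 at 149 (147–152) and 63.0 (61.5–64.6), and VDAC3 at 84.5 and 46.5. VDAC2, which binds BAK1, was thus lower in the library where BAK1 was higher. Of 4 genes that control the ubiquitination of MCL1, 2 were higher and 0 lower, beside the same 18.2% and 14.2%, with a median of 1.01. These were HUWE1, a ligase for MCL1, at 21.1 and 47.1, and USP9X, which removes ubiquitin from it, at 9.04 and 22.6. The higher pair thus held both an enzyme that adds the mark and one that takes it off.

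Of 13 splicing regulators, 0 were higher and 1 was lower, against 18.2% and 14.2% of all tested genes, with a median of 0.03. HNRNPA1, also the most abundant in H2087, was at 405 and 135, while HNRNPK had the highest mean level, at 279 and 298. Of 7 reported transcription factors that act on these genes, 0 passed 2-fold in either direction, beside the same shares, with a median of 0.53. The most abundant was ATF4, at 310 and 225. Over the 58 tested genes reported from these lists, 4 were higher (18.2% of all tested genes) and 8 lower (14.2%), with a median of 0.14, and the genes left out could change this balance. HNRNPA1, CYCS and VDAC1 have near-identical processed copies elsewhere in the genome, so their values are uncertain. These counts describe 2 libraries, and no list was tested against other genes.

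**Figure D5:**
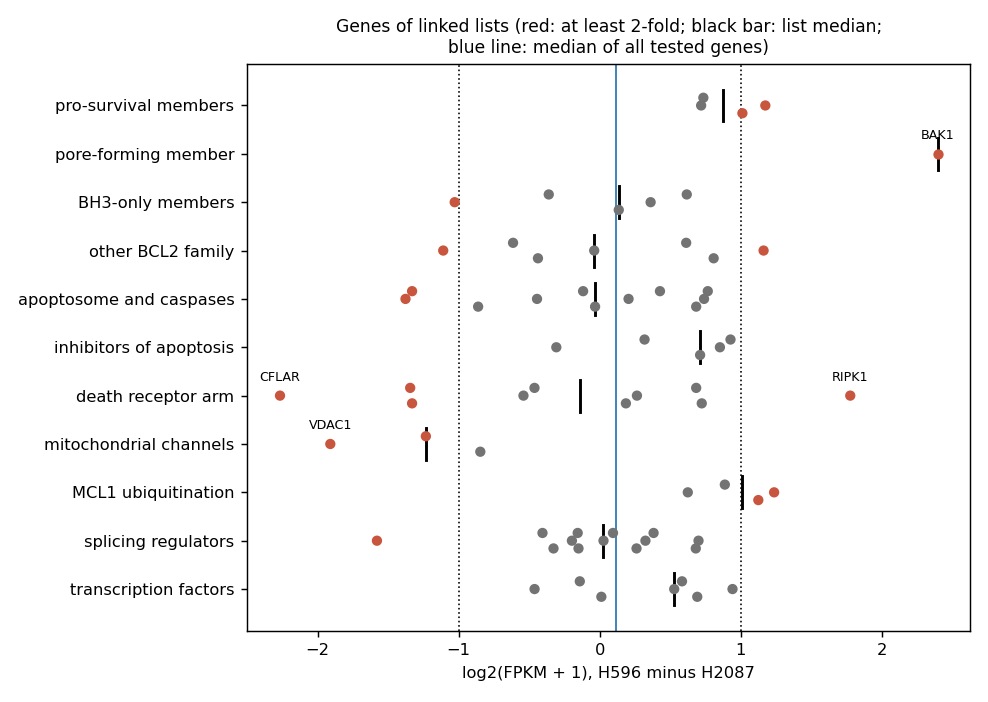
Difference of log2(FPKM + 1), H596 minus H2087, of each tested gene by list. Red points are past 2-fold (dotted lines), black bars are list medians and the blue line is the median of all tested genes, 0.12. Genes held by more than one list (CASP8 and CASP10) are drawn in each, and labelled genes are those furthest from 0.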

How the data were processed

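The authors made stranded mRNA libraries from total RNA and trimmed, aligned (HISAT2 2.0.5, hg19) and quantified the reads against RefSeq transcripts (StringTie 1.3.3b). For each gene and transcript the authors deposited an estimated count, given as a whole number, and FPKM, which is relative to transcript length and library size. How the counts were made is not given in the sources used here. Total counts were 46961500 (H2087) and 55387847 (H596).

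FPKM was compared as log2(FPKM + 1) where the mean FPKM was 1 or more, and 2-fold was the threshold. Intervals (95%) were Wilson intervals of the count share, exact conditional binomial intervals for ratios, and delta-method intervals for shares and sums of FPKM (scipy 1.17.1, Python 3.11.15). All but those for sums were tried on simulated counts. Those counts held counting error only, so the check does not cover other error, such as the division of reads among transcripts. It also took each gene's count as a whole. Genes whose FPKM adds transcripts of unlike length were thus not covered. Alternatives were TPM, TMM scaling (edgeR 4.0.16), centring, other pseudocounts, filters and thresholds, transcript values and counts. The members and lists were chosen with earlier results of these data known. All members and the other family genes were named; of other lists, those with the largest differences past 2-fold and the most abundant gene. Protein sequences were not analysed here. Some genes and 1 list are not reported here, and the list counts are without them.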

Additional observations from a re-analysis of the deposited data

How the results depend on the processing

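No paired analysis was possible because H2087 and H596 are represented by 1 library apiece, which also means that none could be left out. No member changed sign under another pseudocount, TPM, TMM scaling or centring. Members at least 2-fold higher were BCL2, BCL2L1 and BAK1 with FPKM, TPM or a pseudocount of 0.1; after TMM scaling or centring BCL2 was at 0.92 and 0.89 and no longer passed. BMF was at -0.95 in TPM, where members at least 2-fold lower numbered 0 (12.9% of all tested genes) and list genes at least 2-fold higher 9 (24.6% of all tested genes, against 18.2% with FPKM). With a mean FPKM of at least 10, 6 members were tested, of which BCL2L1 and BAK1 were higher and 0 were lower (15.6% and 14% of 6708 genes). At 1.5-fold, 6 members and 19 list genes were higher, beside 30.6% of all tested genes. In the other direction, 1 member and 11 list genes were lower at 1.5-fold, beside 24% of all tested genes. At 3-fold, 1 member was higher and 0 lower, and 1 list gene was higher and 2 lower, beside 8.76% and 7.33% of all tested genes. These follow from the threshold. From counts, which are not divided by length, MCL1 held 68.1% (H2087) and 62.4% (H596) of the pro-survival sum and BCL2L1 19.6% and 25.1%; from each gene's highest transcript, 76.8% and 70.7%, and 10.0% and 15.2%, since BCL2L1 is spread over many transcripts. An alternative chosen after seeing the data, NM_001191 against NM_138578 alone, gave BCL2L1 short shares of 29.0% and 17.2%. Values that rest on few counts, such as the BCL2 beta transcript (18 in H2087), NM_033503 (4 in H596), BCL2A1 and BCL2L10, are imprecise.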
